A study of Mus musculus with 15 samples.

Results

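The respiratory chain subunits described here are the nuclear-encoded proteins of complexes I to IV of the mitochondrial inner membrane and of the ATP synthase. They were followed in mouse embryonic stem (ES) cells depleted of Tet1 or of Sin3A. Members were picked by a rule on gene names, chosen with earlier results of these data known. They were probe sets with a single gene symbol. The symbol began with Ndufa, Ndufb, Ndufc, Ndufs or Ndufv and a digit (or b1), Sdha to Sdhd, Uqcr, Cox4 to Cox8, or Atp5. This gave 79 of the 21212 probe sets on the array, 1 for each of 79 genes, of which 37 belonged by name to complex I, 4 to complex II, 7 to complex III, 17 to complex IV and 14 to the ATP synthase. The subunits encoded by mitochondrial DNA were not among them.

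In the respiratory chain, complexes I and II pass electrons from NADH and from succinate to ubiquinone. Complex III passes them on to cytochrome c and complex IV to oxygen, and the ATP synthase uses the proton gradient so formed. Most subunits are encoded in the nucleus, imported and built together with the few that mitochondria make themselves, and ES cells are known to draw much of their ATP from glycolysis.

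RNA was profiled on 1-colour Affymetrix arrays after knockdown of Tet1, an enzyme that oxidises 5-methylcytosine, or of Sin3A, the scaffold of a histone deacetylase complex. All 15 arrays came from the feeder-independent line E14TG2a.4 at passage 17, grown with serum and LIF and transduced with lentiviral pLKO.1 hairpins. Puromycin at 2 µg/ml was added 36 hours after transduction and kept for 72 hours, so each group was a selected pool of cells and not a clone. The Tet1 set held 3 arrays of Tet1 shRNA 4, 3 of Tet1 shRNA 5 and 3 of a scrambled shRNA, and the Sin3A set held 3 arrays of a Sin3A shRNA and 3 of a scrambled shRNA of its own. Whether a group's arrays represent independent cultures is not given in the labels, and the error of each value may therefore be that of repeated processing alone. In bulk RNA, fewer cells of a type and less RNA per cell cannot be told apart.

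Values are on the log2 scale as deposited, and a call means an adjusted p under 0.05 in limma, adjusted over all 21212 probe sets. Tet1 averaged 10.42 ± 0.03 with shRNA 4 and 10.09 ± 0.14 with shRNA 5, against 12.20 ± 0.02 in scrambled cells (SD, n = 3 each), and Sin3a averaged 9.38 ± 0.04 with its hairpin against 10.93 ± 0.06 in scrambled cells (SD, n = 3 each). Each target also moved in the other set: Sin3a was lower by -0.27 with Tet1 shRNA 4 and -0.24 with shRNA 5 (limma, adjusted p = 0.0147 and 0.0219), and Tet1 rose by 0.31 with Sin3A shRNA (adjusted p = 0.00679). Array medians lay between 6.93 and 6.98 in the Tet1 set and between 8.01 and 8.02 in the Sin3A set, and no level is compared across sets. The SD over probe sets was 2.21 in Tet1 shRNA 4 replicate 2 and 2.19 in scrambled replicate 2, below the 2.23 to 2.27 of the other Tet1-set arrays. In the Tet1 set 24 of the 79 members, and 10415 of all 21212 probe sets, held a value shared exactly by at least 2 arrays. In the Sin3A set none of the members did. All 10 ES cell markers examined lay above the median probe set in every group, as did 3 to 5 of 11 fibroblast markers. Markers of primitive endoderm had array means of 7.15 to 7.23 with shRNA 4 and 7.14 to 7.21 with shRNA 5, against 6.89 to 7.09 in scrambled cells, with 5 of 9 above the median probe set in each group. Markers of trophoblast had array means of 7.12 to 7.18 with shRNA 4 and 7.23 to 7.25 with shRNA 5, against 7.25 to 7.43 in scrambled cells. Of these 9, 2 rose (22.2%) and 4 fell (44.4%) with shRNA 4, and 2 rose (22.2%) and 3 fell (33.3%) with shRNA 5. Of the 9 primitive endoderm markers 2 rose with each hairpin (22.2%), and 1 fell with shRNA 5 (11.1%). With each hairpin 2 of the 11 fibroblast markers (18.2%) and 2 of the 10 ES cell markers (20%) rose, and none fell. Over all probe sets 6.88% rose and 4.71% fell with shRNA 4, and 8.37% and 5.46% with shRNA 5. The part of these lists in the results below was not tested.

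With both Tet1 hairpins, the subunits that changed were all higher, by small amounts per gene. With Tet1 shRNA 4, 14 of 79 members rose (17.7%), where 6.88% of all probe sets did, and no member fell, where 4.71% of all probe sets did. With Tet1 shRNA 5, 19 of 79 rose (24.1%), where 8.37% of all probe sets did, and again none fell, where 5.46% of all probe sets did. At an unadjusted p under 0.05, 1 member was lower with each hairpin. The median log2 change over the 79 members was 0.17 with shRNA 4 and 0.19 with shRNA 5, beside -0.003 and -0.004 over all probe sets. Both hairpins were set against the same 3 scrambled arrays, so their values stand side by side and are not separate evidence. The members were mostly well expressed, 73 of 79 lying at or above the median probe set, and among all probe sets at or above the median 11.5% rose with shRNA 4 and 14.7% with shRNA 5. Of those 73 members 14 (19.2%) rose with shRNA 4 and 19 (26.0%) with shRNA 5.

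Single arrays mattered for the counts. With shRNA 4, the 14 calls became 7 without scrambled replicate 1, 6 without scrambled replicate 3, 8 without shRNA 4 replicate 1, 8 without its replicate 2 and 5 without its replicate 3. In these fits 5.58%, 5.36%, 4.59%, 6% and 4.84% of all probe sets rose, in that order, beside 6.88% with all arrays. The 6 and 5 of 79 members called without either replicate 3 lay near those shares. The count with shRNA 4 was 9 without shRNA 5 replicate 1 and 9 without its replicate 2, arrays that share the estimate of spread. There 5.99% and 5.83% of all probe sets rose. With shRNA 5, the 19 calls became 11 without scrambled replicate 3, 9 without shRNA 5 replicate 1 and 10 without its replicate 3. Of all probe sets 6.31%, 5.91% and 5.74% then rose, beside 8.37% with all arrays. In none of these fits was a member called lower, where 3.02% to 4.15% of all probe sets were. The median over the members stayed between 0.14 and 0.19 for shRNA 4 and between 0.17 and 0.22 for shRNA 5. Without both arrays of lower SD, 10 and 24 members rose, where 6.75% and 9.09% of all probe sets did.

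**Figure D1:**
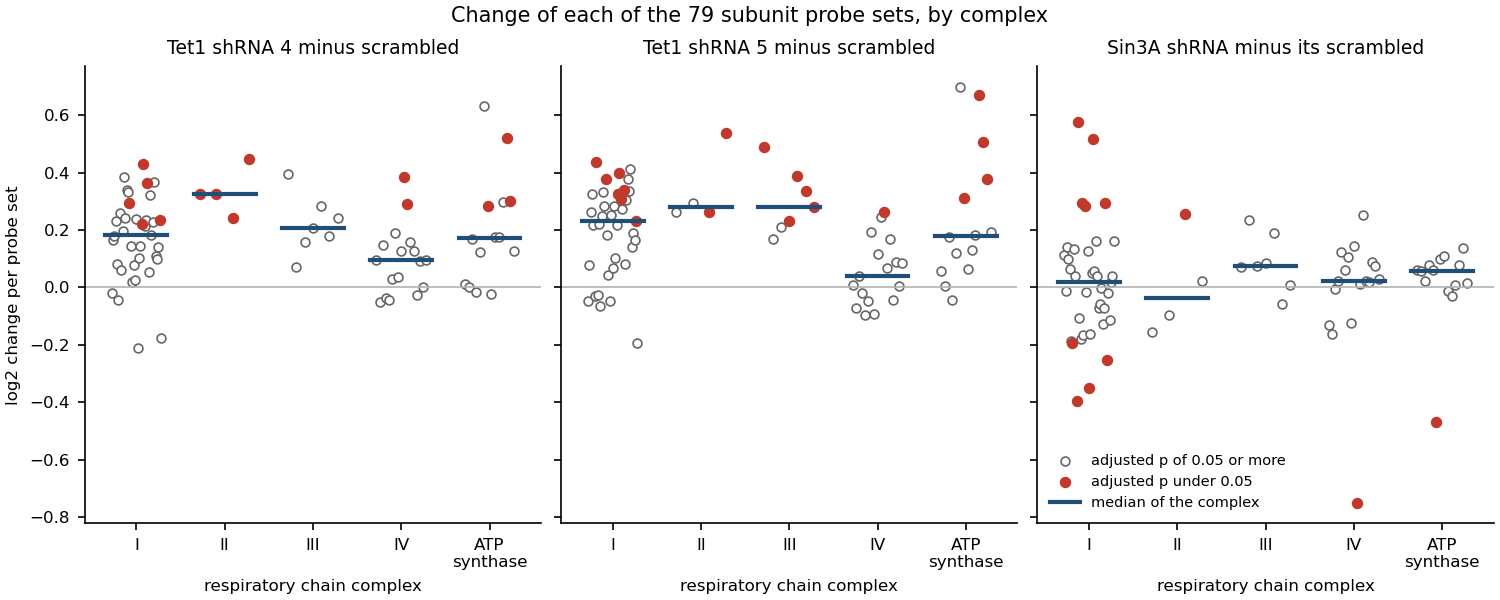
Log2 change of each of the 79 members (points, filled where limma's adjusted p was under 0.05) by complex, with the median of each complex as a bar, for Tet1 shRNA 4, Tet1 shRNA 5 and Sin3A shRNA, each minus its scrambled arrays. In the Tet1 panels the medians of complexes I, II, III and the ATP synthase lie between 0.17 and 0.32 and that of complex IV at 0.10 or 0.04, while in the Sin3A panel all 5 lie between -0.04 and 0.07.

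The same shift was seen array by array. Averaged over the 79 members and set against the scrambled mean, the arrays of shRNA 4 stood at 0.13, 0.15 and 0.23 and those of shRNA 5 at 0.24, 0.15 and 0.19, against -0.05, 0.03 and 0.02 for the scrambled arrays. All 6 knockdown arrays were above all 3 scrambled arrays. The mean over all probe sets lay between -0.01 and 0.02 on each of the 9 arrays. The members were also above scrambled on all 6 knockdown arrays after quantile normalization within the set, where the knockdown arrays stood at 0.12 to 0.22 and the scrambled arrays at -0.06 to 0.05.

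By complex, the array means of complex II lay at 0.29 to 0.38 in the 6 Tet1 knockdown arrays against -0.03 to 0.02 in scrambled arrays. Complex III stood at 0.14 to 0.39 against -0.08 to 0.06, the ATP synthase at 0.17 to 0.30 against -0.03 to 0.03, and complex I at 0.12 to 0.28 against -0.06 to 0.03. The array means of complex IV did overlap, since its knockdown arrays lay at 0.01 to 0.11 and the scrambled arrays at -0.08 to 0.08.

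**Figure D2:**
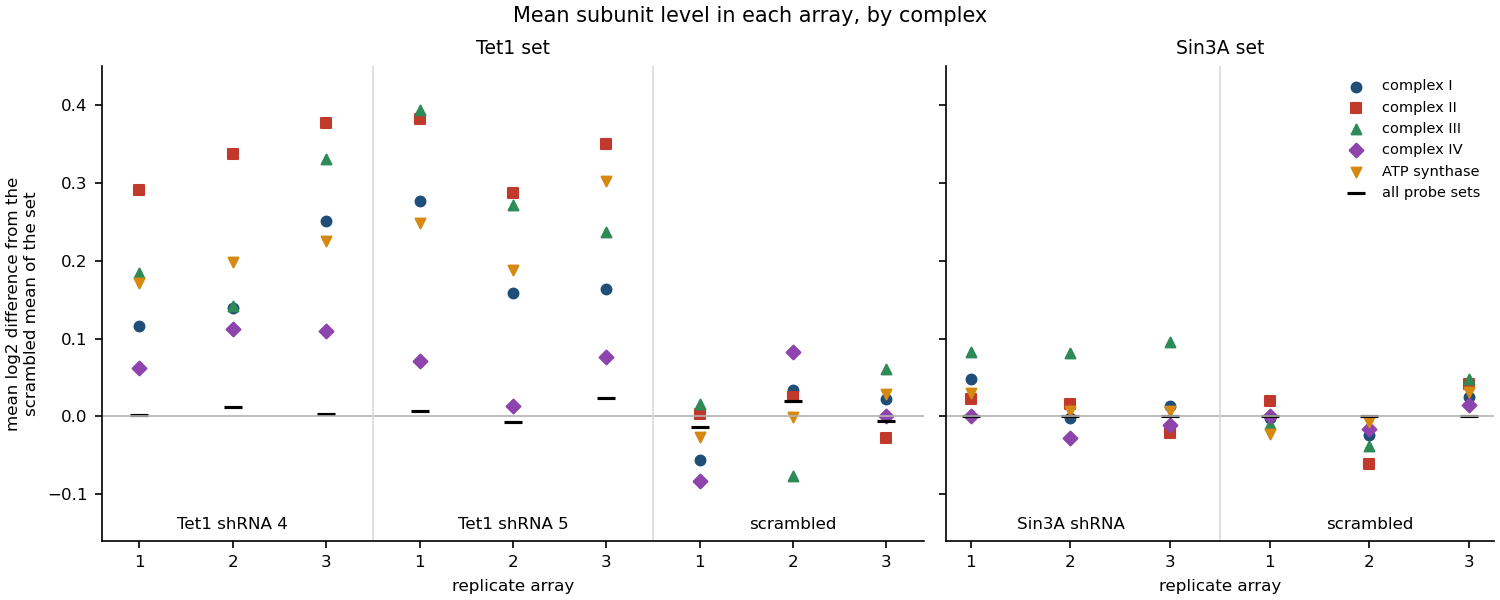
Mean difference from the scrambled mean of the set, on the log2 scale, over the members of each complex (coloured marks) and over all probe sets (black bars), for each array of the Tet1 set and the Sin3A set. In the Tet1 set complexes I, II, III and the ATP synthase sit higher in all 6 knockdown arrays than in the 3 scrambled arrays, complex IV overlaps, and all probe sets stay near zero.

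Complex II, succinate dehydrogenase, links the tricarboxylic acid cycle to the respiratory chain and has only 4 subunits, all nuclear. All 4 rose with shRNA 4 and 2 of 4, Sdhc and Sdhd, rose with shRNA 5, where 6.88% and 8.37% of all probe sets did. Sdhd, a membrane anchor of the complex, had log2 levels of 9.88, 9.94 and 10.01 with shRNA 4 and 10.12, 9.97 and 10.01 with shRNA 5, against 9.46, 9.53 and 9.51 in scrambled cells. The groups did not overlap, and Sdhd was 1.36-fold and 1.45-fold the scrambled level, with log2 changes of 0.45 ± 0.06 (SE; limma, adjusted p = 0.00145) and 0.54 ± 0.06 (SE; adjusted p = 0.00052). This call held under every alternative tried.

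Sdhc, the other membrane anchor, had 11.48, 11.58 and 11.48 and 11.59, 11.51 and 11.51 against 11.31, 11.33 and 11.18, also without overlap. Its change was 0.24 ± 0.06 with shRNA 4 (SE; limma, adjusted p = 0.0381) and 0.26 ± 0.06 with shRNA 5 (adjusted p = 0.0232). The adjusted p reached 0.132 for shRNA 4 without scrambled replicate 3 and 0.0893 for shRNA 5 without shRNA 5 replicate 1. Sdha, the flavoprotein that oxidises succinate, had 10.92, 10.79 and 11.02 with shRNA 4 and 10.81, 10.85 and 10.90 with shRNA 5, against 10.71, 10.44 and 10.61. It changed by 0.32 ± 0.08 with shRNA 4 (SE; limma, adjusted p = 0.0356) and by 0.26 ± 0.08 with shRNA 5, short of the threshold (adjusted p = 0.0712). The first call was lost without shRNA 4 replicate 3 (adjusted p = 0.126). Sdhb, the iron-sulfur subunit, had 10.06, 10.21 and 10.18 and 10.20, 10.01 and 10.16 against 9.71, 9.99 and 9.78, where scrambled replicate 2 came close to the lowest knockdown arrays. Its change was 0.33 ± 0.09 with shRNA 4 (SE; limma, adjusted p = 0.0394, or 0.0638 after quantile normalization) and 0.30 ± 0.09 with shRNA 5 (adjusted p = 0.0515).

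Promoter windows of RefSeq (assembly GRCm38.p6), running 250 bases before to 50 after an annotated start, were available for 63 of the 79 members and were searched on both strands for motifs of factors known to act on respiratory genes. The motif CCGGAAG, bound by GABPA and other ETS factors, was found in 14 of the 63 (22.2%), beside 9.93% of the 27025 genes of the table. The motif GCGCATGCG of NRF1 was found in 5 (7.94%, beside 1.95%) and AAGATGGCG of YY1 in 7 (11.1%, beside 1.64%). The windows of members had a median GC content of 58.3%, and those of all genes 52.8%. At least 1 of the 3 motifs lay in 5 of the 13 windows of members that rose with shRNA 5 (38.5%) and in 18 of the 50 windows of the others (36%), and these shares were not tested against each other. A match is a description of the letters only. The 5 windows below belong to members whose values are given in full: a pair from complex II, both with the ETS motif, 2 complex I subunits called with Sin3A depletion, and Cox7a1, which had none of the 3 motifs. Capitals mark a motif match on either strand.
Sdhd (chr9:50603800-50604099, minus strand): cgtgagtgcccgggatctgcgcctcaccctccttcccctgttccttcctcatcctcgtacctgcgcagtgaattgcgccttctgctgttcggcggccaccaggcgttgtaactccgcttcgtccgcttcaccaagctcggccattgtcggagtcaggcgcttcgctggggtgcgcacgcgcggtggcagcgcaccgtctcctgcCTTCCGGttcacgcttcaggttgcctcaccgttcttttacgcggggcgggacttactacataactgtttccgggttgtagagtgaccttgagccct
Sdhb (chr4:140961021-140961320, plus strand): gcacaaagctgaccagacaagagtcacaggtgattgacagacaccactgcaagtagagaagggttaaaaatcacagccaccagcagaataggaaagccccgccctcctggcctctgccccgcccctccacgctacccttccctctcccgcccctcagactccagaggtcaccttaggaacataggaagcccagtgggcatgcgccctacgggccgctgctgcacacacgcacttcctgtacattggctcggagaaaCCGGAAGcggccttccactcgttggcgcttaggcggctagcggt
Ndufa8 (chr2:36049289-36049588, minus strand): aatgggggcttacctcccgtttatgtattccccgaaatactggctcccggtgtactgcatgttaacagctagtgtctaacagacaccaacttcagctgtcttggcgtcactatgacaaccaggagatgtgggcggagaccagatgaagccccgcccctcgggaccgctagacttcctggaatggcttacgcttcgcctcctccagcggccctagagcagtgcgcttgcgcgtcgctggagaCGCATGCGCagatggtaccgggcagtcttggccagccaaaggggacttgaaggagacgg
Ndufb6 (chr4:40279372-40279671, minus strand): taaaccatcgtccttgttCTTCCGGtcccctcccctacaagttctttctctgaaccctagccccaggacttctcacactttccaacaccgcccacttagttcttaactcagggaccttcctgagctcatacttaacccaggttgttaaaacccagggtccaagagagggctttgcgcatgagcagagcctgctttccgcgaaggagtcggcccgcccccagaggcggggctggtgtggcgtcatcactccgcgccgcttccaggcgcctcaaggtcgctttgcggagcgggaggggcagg
Cox7a1 (chr7:30183921-30184220, plus strand): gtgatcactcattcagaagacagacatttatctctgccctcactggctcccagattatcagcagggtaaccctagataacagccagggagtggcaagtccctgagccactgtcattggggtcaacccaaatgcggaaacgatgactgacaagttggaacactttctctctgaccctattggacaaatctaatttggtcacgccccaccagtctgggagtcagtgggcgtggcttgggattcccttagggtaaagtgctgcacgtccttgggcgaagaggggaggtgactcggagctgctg
Counted from the annotated start, the match began at -46 in Sdhd, at 6 in Sdhb, at -232 in Ndufb6 and, for the NRF1 motif of Ndufa8, at -9.

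Complex I, the NADH dehydrogenase, is the largest complex of the chain. Of its 37 members, 5 rose with shRNA 4 (13.5%, against 6.88% of all probe sets) and 7 with shRNA 5 (18.9%, against 8.37%). Among all probe sets at or above the median, 11.5% and 14.7% rose. The median log2 changes of the complex were 0.18 and 0.23. Ndufc2, an accessory subunit of the membrane arm, had 12.008, 12.022 and 12.063 with shRNA 4 and 12.062, 11.955 and 12.003 with shRNA 5, against 11.629, 11.633 and 11.741 in scrambled cells. All knockdown arrays were above all scrambled arrays, with changes of 0.36 ± 0.06 (SE; limma, adjusted p = 0.00318) and 0.34 ± 0.06 (adjusted p = 0.00419). Ndufa8, an accessory subunit on the intermembrane-space side, had 10.36, 10.41 and 10.38 and 10.50, 10.38 and 10.54 against 10.06, 10.14 and 10.07, again without overlap. It changed by 0.29 ± 0.06 (SE; limma, adjusted p = 0.0115) and 0.38 ± 0.06 (adjusted p = 0.00278). The calls of Ndufc2 and Ndufa8 held with both hairpins under every alternative tried.

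Ndufa2, an accessory subunit of the matrix arm, showed a clear change with 1 hairpin. It had 9.14, 9.12 and 9.25 with shRNA 4 and 9.49, 9.28 and 9.26 with shRNA 5, against 8.92, 8.86 and 8.95 in scrambled cells, and the groups did not overlap. The change was 0.44 ± 0.07 with shRNA 5 (SE; limma, adjusted p = 0.00383) and 0.26 ± 0.07 with shRNA 4, short of the threshold (adjusted p = 0.0545). The difference between the hairpins for Ndufa2 was not called (0.18 ± 0.07, adjusted p = 0.545).

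Among the other complex I subunits called with a Tet1 hairpin, Ndufb8, of the membrane arm, rose by 0.43 ± 0.11 with shRNA 4 (SE; limma, adjusted p = 0.0285) and 0.40 ± 0.11 with shRNA 5 (adjusted p = 0.035). After quantile normalization the shRNA 5 call of Ndufb8 was lost (adjusted p = 0.0756). Ndufb7, an accessory subunit of the membrane arm, rose by 0.22 ± 0.06 (SE; limma, adjusted p = 0.0456, or 0.101 after quantile normalization) and 0.32 ± 0.06 (adjusted p = 0.0066). Ndufv2, an iron-sulfur subunit of the NADH-oxidising tip, rose by 0.23 ± 0.06 (SE; limma, adjusted p = 0.0343) and 0.23 ± 0.06 (adjusted p = 0.0317). Ndufb9, of the membrane arm, rose by 0.31 ± 0.06 with shRNA 5 (SE; limma, adjusted p = 0.00829) and changed by 0.21 ± 0.06 with shRNA 4 (adjusted p = 0.0503). Without shRNA 4 replicate 3 the adjusted p with shRNA 4 was 0.091 for Ndufb8, 0.139 for Ndufb7 and 0.0991 for Ndufv2. Without shRNA 5 replicate 1 the adjusted p with shRNA 5 was 0.127 for Ndufb8 and 0.112 for Ndufv2.

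The lowest values in complex I were not calls. Ndufv3, an accessory subunit of the NADH-oxidising tip, had 8.17, 8.43 and 8.37 with shRNA 4 and 8.32, 8.30 and 8.30 with shRNA 5, against 8.44, 8.60 and 8.47 in scrambled cells, with changes of -0.18 ± 0.08 (SE; limma, adjusted p = 0.208) and -0.19 ± 0.08 (adjusted p = 0.146). Ndufb4, of the membrane arm, varied widely among arrays, with 7.87, 7.87 and 8.31 and 9.01, 8.43 and 8.11, against 8.23, 8.23 and 8.23 in scrambled cells. The 3 scrambled arrays each held 8.22996, a shared value of the kind counted above, and the knockdown arrays lay on both sides of it.

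Complex III, the cytochrome bc1 complex, had calls with shRNA 5, and the difference between the hairpins was not called for any of its members. None of its 7 members rose with shRNA 4 (against 6.88% of all probe sets) and 5 did with shRNA 5 (71.4%, against 8.37%). An unadjusted p under 0.05 was seen for 5 and 6 of the 7, and all 7 were above zero with both. Uqcr10, a small accessory subunit, had 10.05, 10.38 and 10.30 with shRNA 4 and 10.47, 10.24 and 10.29 with shRNA 5, against 9.68, 10.02 and 9.83 in scrambled cells. The lowest knockdown array exceeded the highest scrambled array, and the change was 0.39 ± 0.11 (SE; limma, adjusted p = 0.0518) with shRNA 4 and 0.49 ± 0.11 (adjusted p = 0.0174) with shRNA 5. Uqcrfs1, the Rieske iron-sulfur protein, rose with shRNA 5 by 0.39 ± 0.11 (SE; limma, adjusted p = 0.0443). Uqcrh, the hinge protein, rose by 0.34 ± 0.09 (SE; limma, adjusted p = 0.0429, or 0.0551 after quantile normalization). Uqcrq and the core protein Uqcrc2 rose with shRNA 5 as well, by 0.28 ± 0.08 and 0.23 ± 0.06. Of these 5 calls, 3 were kept after quantile normalization, and without shRNA 5 replicate 1 the adjusted p was 0.0724 for Uqcr10, 0.15 for Uqcrfs1, 0.142 for Uqcrh and 0.128 for Uqcrq. For Uqcrc2 it was 0.115 without shRNA 5 replicate 2. Uqcrb, whose arrays scattered most, changed by 0.07 ± 0.24 and 0.17 ± 0.24.

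Complex IV, cytochrome c oxidase, had 2 calls among 17 members with shRNA 4 (11.8%, against 6.88% of all probe sets). With shRNA 5 it had 1 call (5.88%, against 8.37%). Among all probe sets at or above the median 11.5% and 14.7% rose, so the shares of complex IV lay near or below these. Its median log2 changes were 0.10 and 0.04. Both called subunits were forms of subunit 7a. Cox7a2, the widely expressed form, had 10.41, 10.42 and 10.59 with shRNA 4 and 10.51, 10.39 and 10.44 with shRNA 5, against 10.12, 10.16 and 10.27 in scrambled cells, without overlap. It rose by 0.29 ± 0.07 (SE; limma, adjusted p = 0.027) and 0.26 ± 0.07 (adjusted p = 0.0374, or 0.0692 after quantile normalization). Cox7a1, the form known from heart and skeletal muscle, had 8.76, 8.91 and 8.78 and 8.72, 8.66 and 8.65, against 8.19, 8.66 and 8.45 in scrambled cells. With shRNA 4 it rose by 0.38 ± 0.11 (SE; limma, adjusted p = 0.0456), a call lost after quantile normalization (adjusted p = 0.104) and without shRNA 4 replicate 2 (adjusted p = 0.126). With shRNA 5, whose arrays overlapped the scrambled arrays, it changed by 0.24 ± 0.11 (adjusted p = 0.183). The related Cox7a2l, known for its part in supercomplexes, changed by 0.16 ± 0.08 and 0.07 ± 0.08, short of the threshold.

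None of the other isoform pairs of complex IV was called with either Tet1 hairpin (limma). Cox4i1, the general form of subunit 4, changed by 0.10 ± 0.06 and 0.01 ± 0.06, and Cox4i2, known from lung and hypoxia, by -0.05 ± 0.10 and -0.07 ± 0.10. For subunit 6a, the general form Cox6a1 changed by -0.04 ± 0.07 and -0.10 ± 0.07 and the muscle form Cox6a2 by 0.03 ± 0.12 and -0.05 ± 0.12. For subunit 6b, the general form Cox6b1 changed by 0.19 ± 0.07 and 0.19 ± 0.07 and the testis form Cox6b2 by 0.04 ± 0.09 and -0.09 ± 0.09. Cox7b changed by 0.13 ± 0.07 and 0.17 ± 0.07, its testis form Cox7b2 by -0.03 ± 0.07 and -0.04 ± 0.07. Cox8a, the general form, changed by 0.09 ± 0.07 and 0.09 ± 0.07, the muscle form Cox8b by 0.00 ± 0.08 and 0.01 ± 0.08, and Cox8c by 0.10 ± 0.09 and 0.08 ± 0.09. Low levels limit some of these values. In the Tet1 set Cox7b2 held 4.01 to 4.25, Cox8b 5.74 to 6.10 and Cox6a2 6.27 to 6.74, below the array medians of 6.93 to 6.98. These forms count in the medians of complex IV, which were not taken without them.

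The ATP synthase had 3 calls of 14 with shRNA 4 (21.4%, against 6.88% of all probe sets) and 4 with shRNA 5 (28.6%, against 8.37%). Atp5mpl, a small membrane protein associated with the enzyme, had 10.01, 9.92 and 10.21 with shRNA 4 and 10.01, 9.96 and 10.13 with shRNA 5, against 9.59, 9.33 and 9.66 in scrambled cells. The groups did not overlap, and it rose 1.43-fold and 1.42-fold (limma, adjusted p = 0.00924 and 0.00939). Atp5g3 encodes 1 of the forms of the proton-carrying c subunit and had 12.02, 12.03 and 12.08 and 12.09, 12.01 and 12.10, against 11.71, 11.77 and 11.80. It rose by 0.28 ± 0.06 (SE; limma, adjusted p = 0.0097) and 0.31 ± 0.06 (adjusted p = 0.00528), without overlap. Both genes kept their calls under every alternative tried.

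Atp5o, the subunit that joins the catalytic head to the peripheral stalk, rose by 0.30 ± 0.08 with shRNA 4 (SE; limma, adjusted p = 0.046, and 0.15 without shRNA 4 replicate 3) and 0.38 ± 0.08 with shRNA 5 (adjusted p = 0.0144, and 0.0614 without shRNA 5 replicate 1). Atp5k, subunit e of the membrane part, had 8.14, 8.65 and 8.51 with shRNA 4 and 8.71, 8.92 and 8.80 with shRNA 5, against 7.86, 8.35 and 8.20 in scrambled cells. Its shRNA 5 arrays were above all others, and it rose by 0.67 ± 0.15 (SE; limma, adjusted p = 0.0147, and 0.0617 without shRNA 5 replicate 2). Atp5g1, another gene for the c subunit, lay below the median probe set in every group and had the largest change of any member with both hairpins, 0.63 ± 0.21 and 0.70 ± 0.21, and was called with neither (limma, adjusted p = 0.0919 and 0.0575). Its arrays held 6.39, 6.24 and 6.02 with shRNA 4 and 6.24, 5.86 and 6.74 with shRNA 5, against 5.81, 5.28 and 5.65 in scrambled cells, and so scattered within groups. After quantile normalization it passed with shRNA 5 (adjusted p = 0.0481). The catalytic subunits Atp5a1 and Atp5b, at the other end of the range, changed by 0.01 and 0.00024 with shRNA 4 and by 0.06 and 0.0039 with shRNA 5, and neither was called. The lowest member of the complex was Atp5h with shRNA 4, at -0.02 ± 0.07, a stalk subunit, and Atp5d with shRNA 5, at -0.04 ± 0.06, a subunit of the rotor.

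**Figure D3:**
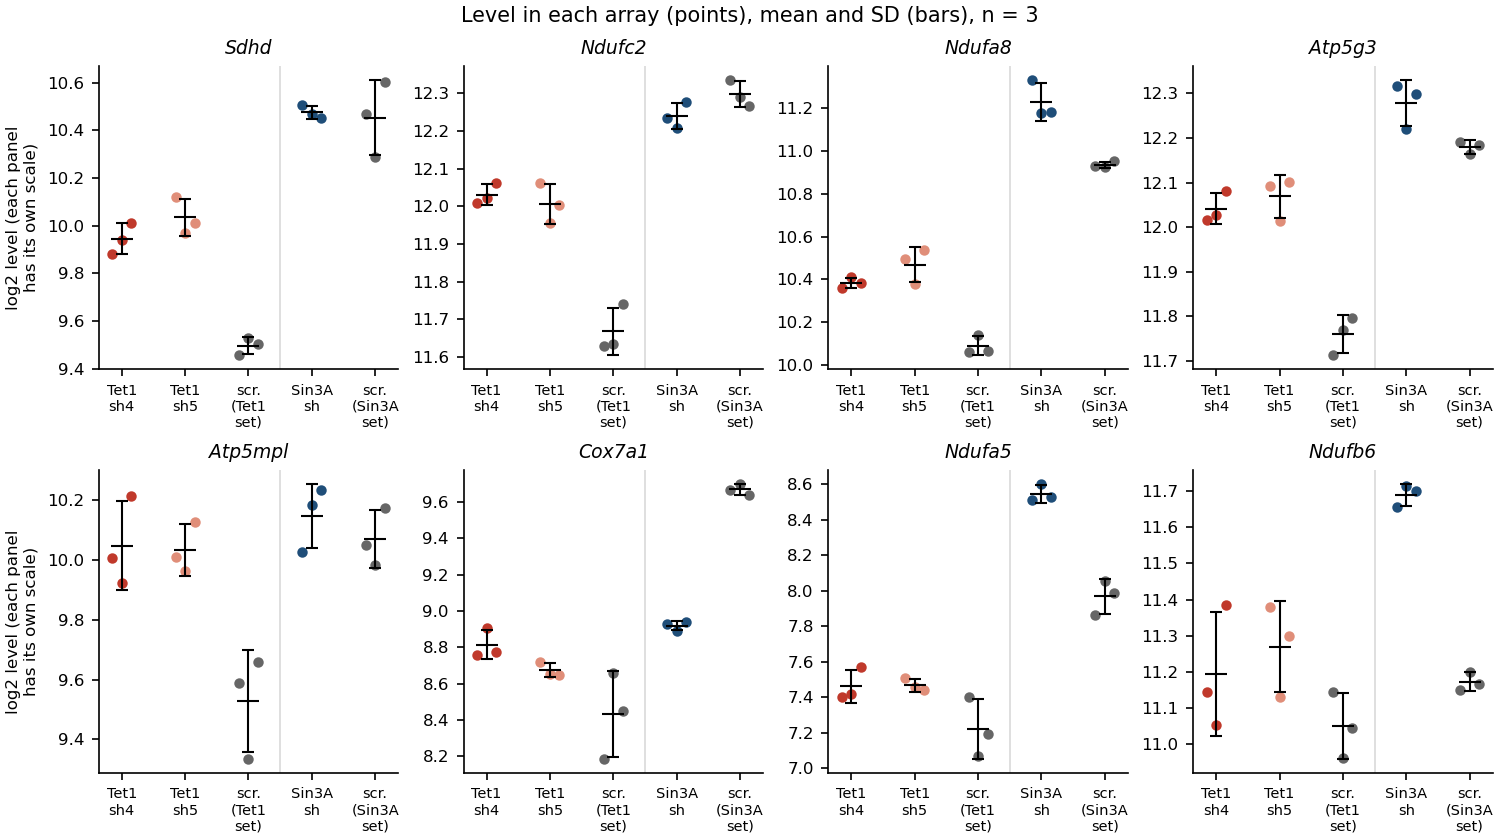
Log2 level of 8 members in each of the 15 arrays (points), with the mean and SD of each group (bars, n = 3), every panel on its own scale and the sets divided by a grey line. Sdhd, Ndufc2, Ndufa8, Atp5g3 and Atp5mpl are higher in all 6 Tet1 knockdown arrays than in the scrambled arrays, and Cox7a1 is lower, and Ndufa5 and Ndufb6 higher, in all 3 Sin3A knockdown arrays.

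Between the hairpins, no member was called higher or lower with shRNA 5 than with shRNA 4, where 0.0566% and 0.0849% of all probe sets were (limma). At an unadjusted p under 0.05, 3 members were higher and 1 was lower with shRNA 5. The largest differences were 0.50 ± 0.20 for Ndufb4 and -0.45 ± 0.17 for Ndufa4l2 (SE; adjusted p = 0.528 and 0.482). Ndufa4l2, a hypoxia-induced relative of Ndufa4, had 7.51, 7.36 and 7.74 with shRNA 4 and 6.98, 7.17 and 7.13 with shRNA 5, against 6.73, 7.44 and 7.29 in scrambled cells, and overlapped scrambled with both. In the other complexes the differences between the hairpins ran from -0.06 ± 0.08 for Sdha to 0.09 ± 0.06 for Sdhd in complex II, and from 0.03 ± 0.06 for Uqcrc2 to 0.16 ± 0.09 for Uqcrh in complex III. They ran from -0.14 ± 0.11 for Cox7a1 to 0.04 ± 0.07 for Cox7b in complex IV, and from -0.05 ± 0.06 for Atp5j to 0.37 ± 0.15 for Atp5k in the ATP synthase. Ndufa4 itself changed with the Tet1 hairpins by 0.20 ± 0.11 and 0.22 ± 0.11.

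With Sin3A depletion, calls in both directions were equally many. Of the 79 members 6 rose (7.59%), where 12.2% of all probe sets did, and 6 fell (7.59%), where 12.6% of all probe sets did. The median log2 change over the members was 0.03, beside 0.006 over all probe sets, and their array means lay at 0.002 to 0.036 with Sin3A shRNA and overlapped the -0.022 to 0.027 of its scrambled arrays. Among probe sets at or above the median, 19.2% rose and 18.4% fell, and of the 72 members there 5 rose and 4 fell. The number lower became 3 without scrambled replicate 1, 2 without Sin3A shRNA replicate 2, and 4 without either scrambled or Sin3A shRNA replicate 3. Over all probe sets 8.57%, 8.02%, 10% and 10.3% were lower in these fits, in that order. The count of higher calls stayed at 5 or 6 when single arrays were left out, where 7.81% to 11.7% of all probe sets were higher.

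Cox7a1 had the largest change of any member with Sin3A depletion. Its levels were 8.93, 8.89 and 8.94 with Sin3A shRNA and 9.67, 9.70 and 9.64 in scrambled cells, each group within a narrow range, a log2 change of -0.75 ± 0.05 (SE; limma, adjusted p = 6.99e-05). No other member placed in complex IV by its name was called with Sin3A depletion, and the general form Cox7a2 changed by 0.01 ± 0.06 (adjusted p = 0.909). Trophoblast markers, examined for other cell types, had array means of 8.30 to 8.34 with Sin3A shRNA and 8.61 to 8.65 in scrambled cells. Of these 9, 4 were called lower (44.4%, against 12.6% of all probe sets) and 1 higher (11.1%, against 12.2%). Of 9 primitive endoderm markers 2 were higher (22.2%) and 1 lower (11.1%). Of 11 fibroblast markers 1 was higher (9.09%) and 2 lower (18.2%), and of 10 ES cell markers 1 was higher and 1 lower (10% each). The part of these lists in the changes was not tested.

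In complex I, which by gene name holds 37 of the 79 members, 5 rose (13.5%) and 4 fell (10.8%) with Sin3A depletion, close to the 12.2% and 12.6% of all probe sets. Ndufa5, an accessory subunit of the matrix arm, had 8.51, 8.60 and 8.53 with Sin3A shRNA and 7.86, 8.05 and 7.99 in scrambled cells, a 1.49-fold rise (limma, adjusted p = 0.000636). Ndufb6, of the membrane arm, had 11.65, 11.71 and 11.70 with Sin3A shRNA and 11.15, 11.20 and 11.17 in scrambled cells, a 1.43-fold rise (adjusted p = 0.00032). Neither gene's groups overlapped, and both kept their calls under every alternative tried.

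Ndufa8 rose with Sin3A depletion by 0.29 ± 0.06 (SE; limma, adjusted p = 0.00827), Ndufb10, of the membrane arm, by 0.28 ± 0.05 (adjusted p = 0.00439) and the complex II anchor Sdhc by 0.25 ± 0.05 (adjusted p = 0.00971). Ndufa8 and Sdhc had thus risen in all 3 knockdown comparisons. Ndufs5, of the intermembrane-space side, rose by 0.30 ± 0.09 (limma, adjusted p = 0.0445, and 0.13 without scrambled replicate 3). Ndufa4l2, counted in complex I by its name only, fell. It had 8.01, 7.87 and 7.88 with Sin3A shRNA and 8.36, 8.26 and 8.33 in scrambled cells, a change of -0.40 ± 0.06 (limma, adjusted p = 0.0023).

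Ndufb3, of the membrane arm, had a change of -0.35 ± 0.08 with Sin3A depletion (SE; limma, adjusted p = 0.0141), Ndufs6, a zinc-binding subunit, of -0.25 ± 0.07 (adjusted p = 0.0316) and Ndufa2 of -0.19 ± 0.05 (adjusted p = 0.0246), all lower. The c subunit gene Atp5g1 had 7.07, 6.78 and 6.59 with Sin3A shRNA and 7.20, 7.37 and 7.28 in scrambled cells, a change of -0.47 ± 0.12 (adjusted p = 0.0213). Without Sin3A shRNA replicate 2 these 4 calls were lost, with adjusted p of 0.0587 for Ndufb3, 0.116 for Ndufs6, 0.101 for Ndufa2 and 0.0722 for Atp5g1. Complex III had no call with Sin3A depletion, although 1 of its 7 members had an unadjusted p under 0.05, and its array means, 0.08 to 0.10, lay above the -0.04 to 0.05 of the scrambled arrays. Its members ran from -0.06 ± 0.07 for Uqcrh to 0.24 ± 0.08 for Uqcrb. The highest complex IV subunit was Cox7a2l, at 0.25 ± 0.10 (adjusted p = 0.0962), the highest ATP synthase subunit Atp5o, at 0.14 ± 0.05 (adjusted p = 0.0792), and the lowest complex II subunit Sdha, at -0.16 ± 0.05 (adjusted p = 0.0562).

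Whether the subunits responded differently to the depletions was tested directly, as the mean of both Tet1 effects minus the Sin3A effect in a fit of all 15 arrays. Of the 79 members 17 differed upward (21.5%), where 11.3% of all probe sets did, and 3 downward (3.8%), where 8.71% of all probe sets did (limma). Among probe sets whose mean over all 15 arrays lay at or above the median, 18.2% differed upward and 13.4% downward, and of the 72 members there 15 (20.8%) did so upward and 3 (4.17%) downward. Each effect was taken against the scrambled arrays of its own set, and the set of arrays cannot be told apart from the depleted protein in this contrast. The 20 differences became 11 without Sin3A-set scrambled replicate 3, 11 without Sin3A shRNA replicate 2, and 13 without scrambled or Sin3A shRNA replicate 1 of that set. Over all probe sets 9.53%, 9.23%, 9.28% and 9.92% then differed upward, in that order, and 7.14%, 6.84%, 7.03% and 8.1% downward.

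Cox7a1 and Atp5g1 differed most, by 1.06 ± 0.12 and 1.13 ± 0.25 on the log2 scale (SE; limma, adjusted p = 1.93e-05 and 0.0051), Atp5g1 at a level below the median probe set in both sets. Complex II contributed Sdhd, Sdha and Sdhb, at 0.47 ± 0.10, 0.45 ± 0.10 and 0.41 ± 0.10, and not Sdhc, at -0.00 ± 0.08 (adjusted p = 0.987). Complex I contributed 10 members upward, among them Ndufs6 at 0.64 ± 0.18, Ndufa2 at 0.54 ± 0.09 and Ndufb3 at 0.50 ± 0.11. The 3 downward members, Ndufv3, Ndufb6 and Ndufa5, were all of complex I, at -0.35 ± 0.11, -0.33 ± 0.11 and -0.33 ± 0.11. Downward means a Tet1 effect below the Sin3A effect. With Tet1 shRNA 4 Ndufa5 had 7.40, 7.42 and 7.57, and with shRNA 5 7.51, 7.46 and 7.44. Its scrambled arrays held 7.40, 7.07 and 7.20. Ndufb6 had 11.14, 11.05 and 11.38 and 11.38, 11.13 and 11.30, against 11.14, 10.96 and 11.05. Neither gene was called with a Tet1 hairpin. When each of the 15 arrays was left out in turn, Ndufv3, Ndufb6 and Ndufa5 lost their calls in 10, 12 and 11 of the fits, with adjusted p of up to 0.127, 0.107 and 0.113. All 3 calls were lost without scrambled replicate 3, shRNA 4 replicate 1, shRNA 5 replicate 2 or shRNA 5 replicate 3 of the Tet1 set, and without scrambled replicate 1, Sin3A shRNA replicate 1 or Sin3A shRNA replicate 2 of the Sin3A set. Complex III ran from -0.11 ± 0.27 for Uqcrb to 0.37 ± 0.14 for Uqcr10 (limma, adjusted p = 0.0749) and had no call, and the lowest values of complex IV and the ATP synthase were -0.19 ± 0.09 for Cox6a1 and -0.11 ± 0.07 for Atp5d. For Ndufa8, which rose in all 3 comparisons, the difference was 0.04 ± 0.08 (SE; adjusted p = 0.763).

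**Figure D4:**
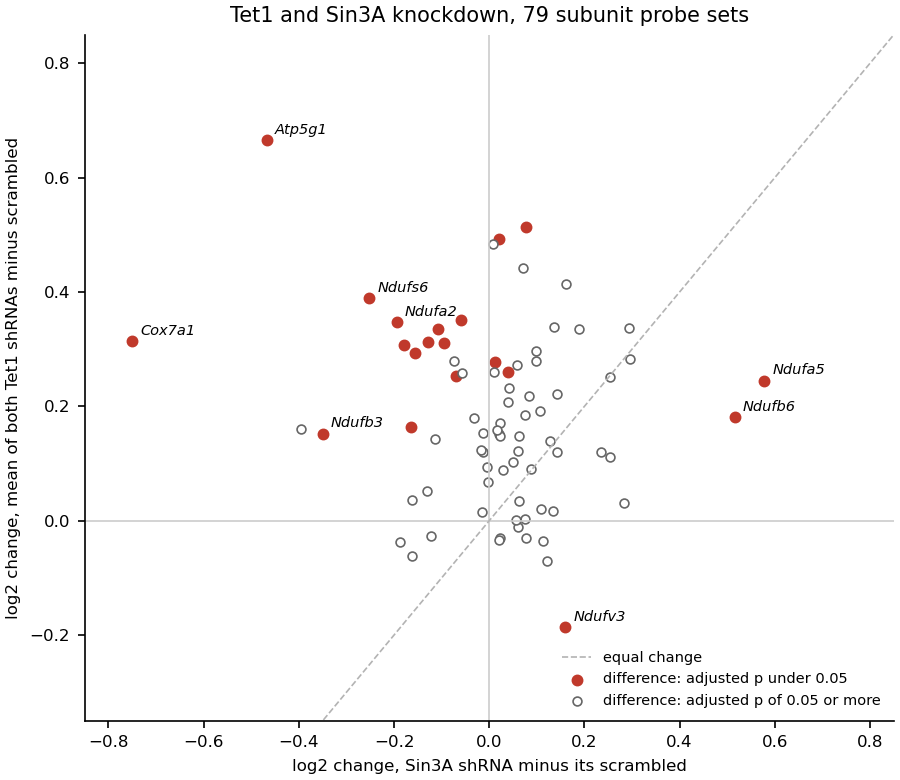
Log2 change of each member with Tet1 depletion (vertical axis, mean of both hairpins minus scrambled) against that with Sin3A depletion (horizontal axis, minus its own scrambled arrays), filled where the difference between them had limma's adjusted p under 0.05. The 17 filled points above the dashed line of equal change include Cox7a1 and Atp5g1 at the far left, and the 3 below it are Ndufv3, Ndufb6 and Ndufa5.

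Genes that serve the chain without being subunits were followed as lists, and their shares stand beside those of all probe sets: 6.88% higher and 4.71% lower with Tet1 shRNA 4, 8.37% and 5.46% with shRNA 5, and 12.2% and 12.6% with Sin3A shRNA. Most genes of each list lay above the median probe set. Among all probe sets at or above the median these shares were 11.5% and 7.29%, 14.7% and 8.33%, and 19.2% and 18.4%. Of 51 measured assembly factors, 10 rose with Tet1 shRNA 4 (19.6%), 14 rose (27.5%) and 1 fell with shRNA 5, and 8 rose (15.7%) and 4 fell (7.84%) with Sin3A shRNA, the last near the shares of all probe sets. Their median log2 changes were 0.15, 0.20 and 0.01, and 46 of the 51 lay above the median probe set with either Tet1 hairpin. Ndufaf1, which helps to build complex I, rose by 0.73 ± 0.11 and 0.90 ± 0.11 with the Tet1 hairpins (SE; limma, adjusted p = 0.0018 and 0.000541) and changed by -0.23 ± 0.06 with Sin3A shRNA (adjusted p = 0.0302). Sdhaf1, which helps to insert iron-sulfur clusters into Sdhb, rose in all 3 comparisons, by 0.39 ± 0.08, 0.46 ± 0.08 and 0.43 ± 0.07. Foxred1, another complex I assembly factor, rose by 0.54 ± 0.07 with shRNA 4, and Atpaf2, for the ATP synthase, by 0.48 ± 0.08 with shRNA 5. The copper chaperone Cox17 rose by 0.45 ± 0.10 with shRNA 5, whereas the complex I factor Timmdc1 was lower (-0.29 ± 0.08). With Sin3A shRNA, Coa8 and Cox18, both for complex IV, changed by -0.51 ± 0.07 and -0.42 ± 0.06, and Acad9, for complex I, rose by 0.35 ± 0.07.

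The mitochondrial ribosome, which translates the subunits encoded by mitochondrial DNA, was the largest list. Of its 76 proteins, 11 rose with Tet1 shRNA 4 (14.5%, against 6.88% of all probe sets) and 29 with shRNA 5 (38.2%, against 8.37%), and none fell with either. Of the 76, 73 lay above the median probe set with shRNA 4 and 74 with shRNA 5. Among all probe sets at or above the median 11.5% and 14.7% rose, and the share with shRNA 4 was near the first of these. With Sin3A shRNA 8 rose (10.5%) and 11 fell (14.5%), near the 12.2% and 12.6% of all probe sets. Mrpl36 rose by 0.55 ± 0.08 and 0.87 ± 0.08 with the Tet1 hairpins (SE; limma, adjusted p = 0.00196 and 0.000139). Mrps21 rose by 0.92 ± 0.27 with Tet1 shRNA 5 (adjusted p = 0.0492) and changed by -0.83 ± 0.14 with Sin3A shRNA (adjusted p = 0.00455). In the direct comparison of both depletions 23 of the 76 differed upward (30.3%, against 11.3% of all probe sets) and none downward (against 8.71%). Among probe sets at or above the median, 18.2% differed upward and 13.4% downward.

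Of 13 genes for expression of mitochondrial DNA, none rose and 2 fell (15.4%) with shRNA 4, 1 rose and 1 fell (7.69% each) with shRNA 5, and 2 rose and 2 fell (15.4% each) with Sin3A shRNA. With so few genes 1 call moves the share by 7.69 percentage points, and the shares with shRNA 5 and Sin3A shRNA lay near those of all probe sets. Tfb1m, an rRNA methyltransferase of mitochondria, was lower with both Tet1 hairpins, at -0.73 ± 0.08 and -0.74 ± 0.08 (SE; limma, adjusted p = 0.000294 and 0.000254), and rose by 0.21 ± 0.05 with Sin3A shRNA (adjusted p = 0.0193). Tefm, the mitochondrial transcription elongation factor, changed by -0.26 ± 0.06 with shRNA 4 and -0.38 ± 0.07 with Sin3A shRNA.

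Of 10 regulators of respiratory genes, 2 rose with each Tet1 hairpin (20%, against 6.88% and 8.37% of all probe sets), and 1 rose (10%) and 2 fell (20%) with Sin3A shRNA, against 12.2% and 12.6%. Ppargc1b, a coactivator of mitochondrial genes, rose in all 3 comparisons, by 0.61 ± 0.06, 0.61 ± 0.06 and 0.72 ± 0.07 (SE; limma, adjusted p = 0.000233, 0.000247 and 0.00047). Myc rose by 0.36 ± 0.06 and 0.60 ± 0.06 with the Tet1 hairpins. Nrf1 and Gabpb2, a partner of GABPA, were lower with Sin3A shRNA, at -0.16 ± 0.05 and -0.30 ± 0.07.

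Of 11 measured enzymes of the tricarboxylic acid cycle, 1 rose with Tet1 shRNA 4 (9.09%, against 6.88% of all probe sets), none was called with shRNA 5 (limma), and 4 rose with Sin3A shRNA (36.4%, against 12.2%), among them Idh3a at 0.34 ± 0.06. Of 17 genes of glycolysis and lactate handling, 3 rose with shRNA 4 (17.6%), 3 rose and 3 fell with shRNA 5 (17.6% each, against 8.37% and 5.46% of all probe sets), and 3 rose (17.6%) and 4 fell (23.5%) with Sin3A shRNA, against 12.2% and 12.6%. The hexokinase Hk1 rose in all 3 comparisons, by 0.68 ± 0.07, 0.48 ± 0.07 and 0.43 ± 0.08, as did Pdk1, a kinase that restrains pyruvate entry into the cycle, by 0.38 ± 0.08, 0.29 ± 0.08 and 0.58 ± 0.05. Among 19 genes for ubiquinone synthesis, cytochrome c and electron transfer from fatty acid oxidation, 3 rose (15.8%) and 1 fell (5.26%) with shRNA 4, 2 rose (10.5%) and 1 fell (5.26%) with shRNA 5, and 4 rose (21.1%) and 2 fell (10.5%) with Sin3A shRNA, where 12.2% and 12.6% of all probe sets did. Etfa, an electron transfer flavoprotein, rose by 0.35 ± 0.08 and 0.32 ± 0.08 with the Tet1 hairpins, and Coq5, of ubiquinone synthesis, by 0.53 ± 0.07 with Sin3A shRNA.

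Repeating the fits after quantile normalization within each set left 14 calls higher with Tet1 shRNA 4 (17.7%, against 6.98% of all probe sets) and 16 with shRNA 5 (20.3%, against 7.59%). With Sin3A shRNA 6 were higher and 6 lower (7.59% each, against 12.2% and 12.6%). The medians over the members were then 0.18, 0.17 and 0.03. By complex, the calls with shRNA 4 were 6 in complex I, 3 in complex II, 1 in complex III, 1 in complex IV and 3 in the ATP synthase, and with shRNA 5 they were 6, 2, 3, 0 and 5. The absence of calls in complex IV with shRNA 5 stood beside 3 members with an unadjusted p under 0.05 (limma).

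**Figure D5:**
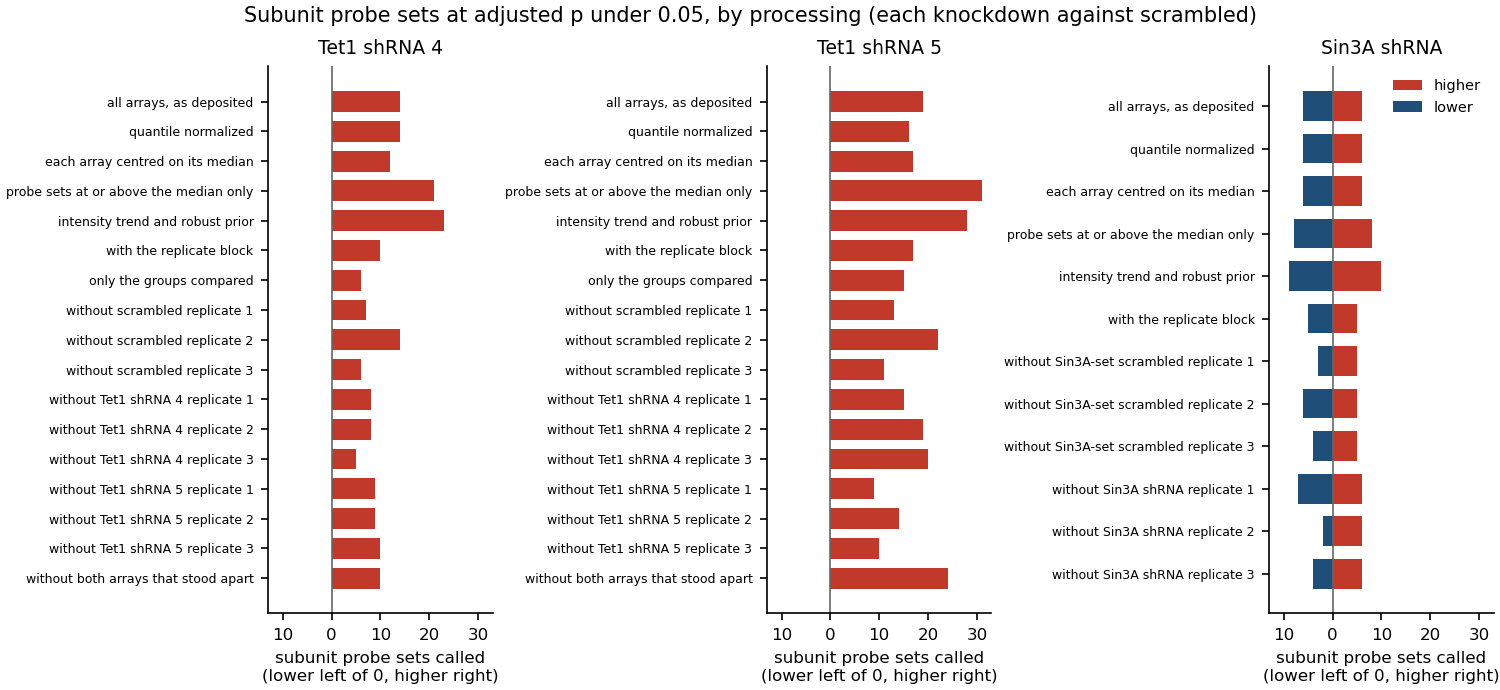
Number of members called higher (right of zero) and lower (left of zero) at limma's adjusted p under 0.05, for the deposited values and for each alternative processing, in each of the 3 knockdown comparisons. No alternative gave a lower call with a Tet1 hairpin, while the higher calls ran from 5 to 23 with shRNA 4 and from 9 to 31 with shRNA 5. Over all tested probe sets the share called higher ran from 4.59% to 15.7% with shRNA 4 and from 5.65% to 19.3% with shRNA 5.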

How the data were processed

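RNA of 15 samples was measured on 1 array each. The log2 values of 21212 probe sets were deposited by the authors as 1 table, and affy, RMA and limma are named for it per the submitters' processing notes, with no version, role or order. RMA corrects background, normalizes arrays and summarises probes, which can narrow differences. The number of arrays limits the precision. Gene names came from the platform annotation, which gave 18786 probe sets 1 symbol, 6 several and 2420 none, and the Entrez numbers and symbols of all 79 members were found in RefSeq (GRCm38.p6).

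Here limma 3.58.1 in R 4.3.3 (lmFit, eBayes, two-sided) was fitted to the 9 arrays of the Tet1 set with 3 group means, to the 6 arrays of the Sin3A set, and to all 15 arrays with 5 group means for the mean Tet1 effect minus the Sin3A effect. P-values were adjusted by Benjamini-Hochberg over the whole table, calls needed an adjusted p under 0.05, and no low values were filtered out. Promoters were searched with Python 3.11.15, and the fitting code was tested on simulated data. Groups came from sample titles. Alternatives were quantile normalization within each set, centring each array on its median, probe sets at or above the median only, an intensity trend with a robust prior, a replicate block, only the groups compared, and each array left out; leaving out both arrays of lower SD was added after seeing the data.

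The members and the 7 related and 4 marker lists were chosen with earlier results of these data known. Members named in the text are, in each comparison, the called ones (by rule up to the 12 largest changes, and the remaining calls were named as well), the highest and lowest of each complex, and the isoform pairs; list genes are up to 4 called per direction with the largest change. Same-numbered replicates deviated together with correlations of -0.29 to 0.52 in the Tet1 set and -0.27 to 0.02 in the Sin3A set. Arrays of different number had -0.46 to 0.28 and -0.23 to 0.24. The value of 0.52 was that of both arrays of lower SD. The labels do not say what the numbers mean, and they were not taken as pairs. Whether probe sets also measure near-identical gene copies was not tested. Protein sequences were not used here.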

Additional observations from a re-analysis of the deposited data

Results flagged for a closer look

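For 20 members the mean of both Tet1 effects differed from the Sin3A effect in the fit of all 15 arrays (limma, adjusted p under 0.05), and each difference is given on the log2 scale as the Tet1 effect minus the Sin3A effect. In complex I the differences were 0.6421 for Ndufs6, 0.5421 for Ndufa2, 0.5023 for Ndufb3, 0.4875 for Ndufa7, 0.4416 for Ndufa6, 0.4408 for Ndufs3, 0.41 for Ndufc2, 0.3293 for Ndufa9, 0.3242 for Ndufc1 and 0.2202 for Ndufb9. Also in complex I, they were -0.346 for Ndufv3, -0.3348 for Ndufb6 and -0.3318 for Ndufa5. In complex II they were 0.4719 for Sdhd, 0.4506 for Sdha and 0.406 for Sdhb. In complex IV they were 1.063 for Cox7a1 and 0.2654 for Cox7a2, and in the ATP synthase 1.133 for Atp5g1 and 0.435 for Atp5mpl. Of these 20, the 10 that kept their call under every alternative that gave them a value were Atp5g1, Cox7a1, Ndufa2, Ndufa6, Ndufa9, Ndufb3, Ndufc2, Sdha, Sdhb and Sdhd. Over all 15 arrays Atp5g1 and Ndufb3 averaged below the median probe set, and they were not tested where only probe sets at or above the median were kept. Ndufa6, Ndufa7, Ndufa9, Ndufc1, Ndufs3 and Ndufv3 were called in none of the 3 knockdown comparisons.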

How the results depend on the processing

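Under every alternative that was run, no member was called lower with a Tet1 hairpin. The median over the 79 members stayed above zero in each of the 3 knockdown comparisons wherever it was taken. It was not taken where only probe sets at or above the median were tested. The count of calls with Tet1 shRNA 4, 14 as reported, was 23 with an intensity trend and robust prior and 6 when the other hairpin's arrays were kept out of the fit. Over all probe sets 7.54% and 4.71% were then higher, beside 6.88% as reported. With Tet1 shRNA 5 the count was 31 of 73 members tested, in place of 19 of 79, when only probe sets at or above the median were tested. The share of all tested probe sets called higher was then 19.3%, in place of 8.37%. With Sin3A shRNA the count was 19, in place of 12, with the intensity trend and robust prior, where 13.6% of all probe sets were higher and 14.1% lower. Leaving out each array in turn gave 5 to 14 calls with Tet1 shRNA 4, 9 to 22 with Tet1 shRNA 5, 8 to 13 with Sin3A shRNA, 0 between the hairpins, and 11 to 21 differences between both depletions, in place of 20. In these fits 4.59% to 7.07% of all probe sets were higher with Tet1 shRNA 4 and 5.65% to 8.3% with Tet1 shRNA 5. With Sin3A shRNA 7.81% to 11.7% were higher and 8.02% to 11.6% lower. Between the depletions 9.23% to 11.7% differed upward and 6.84% to 9.7% downward. With the replicate number as a block there were 10 calls with Tet1 shRNA 4, 17 with Tet1 shRNA 5, 10 with Sin3A shRNA, 0 between the hairpins and 15 differences between the depletions. With this block 6.44% of all probe sets were higher with Tet1 shRNA 4 and 7.87% with Tet1 shRNA 5. With Sin3A shRNA 9.55% were higher and 9.83% lower, and between the depletions 9.97% differed upward and 7.59% downward. The labels do not say whether the replicate numbers pair the samples. Fewer arrays or fewer probe sets tested change these counts by construction, and for the others the cause was not tested. Calls kept under every alternative were 5 of 14 with Tet1 shRNA 4 (Atp5g3, Atp5mpl, Ndufa8, Ndufc2 and Sdhd), 8 of 19 with Tet1 shRNA 5 (those 5 with Ndufa2, Ndufb7 and Ndufb9) and 7 of 12 with Sin3A shRNA (Cox7a1, Ndufa4l2, Ndufa5, Ndufa8, Ndufb10, Ndufb6 and Sdhc). By complex, the median changed sign in 1 alternative for complex IV with Tet1 shRNA 5 (lowest -0.01) and in 1 for complex II with Sin3A shRNA (highest 0.01).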
